A study of Arabidopsis thaliana with 30 samples.

Results

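The genes described here are the 8 annotated precursors of trans-acting small interfering RNAs (ta-siRNAs) of Arabidopsis thaliana, chosen by locus identifier from a table of 38088 genes. They are TAS1A (AT2G27400), TAS1B (AT1G50055), TAS1C (AT2G39675), TAS2 (AT2G39681), TAS3 (AT3G17185), TAS3B (AT5G49615), TAS3C (AT5G57735) and TAS4 (AT3G25795). Their transcript levels were read in FPKM, a fragment count divided by transcript length and by library size, from 30 mRNA-seq libraries of whole seedlings, with 3 libraries in each of 10 groups. The seedlings were 7 days old, had grown at 22 °C on agar, and were smxl4 smxl5, smxl6 smxl7 smxl8, ski2 dcl4, ski2 dcl4 dcl2 or the wild type Col-0. For each genotype, 3 libraries came from sealed plates put for 85 min into a water bath at 44 °C (heat) and 3 from plates kept without heat (control). The labels name the mutated genes but no alleles, promoters or transgenes, and leave unsaid whether the 3 libraries of a group are separate cultures. The p-values therefore reflect only how far these samples spread, which may be technical.

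A TAS transcript is a non-coding RNA that is made to be cut. A microRNA loaded into an Argonaute protein cleaves it, SGS3 and the RNA-dependent RNA polymerase RDR6 turn a cleaved part into double-stranded RNA, and the Dicer-like enzyme DCL4 chops that part into siRNAs in phase with the first cut. The siRNAs then act in trans: those of TAS1 and TAS2 on pentatricopeptide repeat (PPR) genes and on the small HTT (HEAT-INDUCED TAS1 TARGET) genes, those of TAS3 on the auxin response factor genes ARF2, ARF3 and ARF4, which shape leaf polarity and phase change, and those of TAS4 on MYB genes that turn on anthocyanin synthesis. DCL2 can act on the same kind of double-stranded RNA when DCL4 is missing, and SKI2 is a helicase that feeds RNA fragments to the cytoplasmic exosome. The libraries measured the long transcripts, not the siRNAs, and a gene-level value does not tell an intact precursor from its cleaved parts.

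The mature sequences of the 3 trigger microRNAs are shown because they sort the precursors into families, with the seed (bases 2 to 8) in capitals and 5′ to 3′, from RefSeq's annotation of TAIR10.1.
miR173-5p: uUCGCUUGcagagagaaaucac
miR390a-5p: aAGCUCAGgagggauagcgcc
miR828: uCUUGCUUaaaugaguauucca
The 3 seeds differ, and miR390b has the same mature sequence as miR390a. The best matching site of each microRNA in the precursors follows, read from the same RefSeq genome. Capitals mark bases that pair with the microRNA, and lower case marks mismatches and G:U pairs.
TAS1A, chr2:11722081-11722102, minus strand: GUGAUUUuUCUCUaCAAGCGAA
TAS1B, chr1:18549660-18549681, minus strand: GUGAUUUuUCUCaaCAAGCGAA
TAS1C, chr2:16537890-16537911, minus strand: GUGAUUUuUCUCUaCAAGCGAA
TAS2, chr2:16539991-16540012, minus strand: GUGAUUUuUCUCUcCAAGCGAA
TAS3, site nearer the 5′ end, chr3:5862099-5862119, plus strand: GGuGuUAUCCuauCUGAGCUU
TAS3, site nearer the 3′ end, chr3:5862343-5862363, plus strand: uuguCUAUCCCUCCUGAGCUa
TAS4, chr3:9417809-9417830, minus strand: UGGAAUACUCAUUUgAGCAAGA
The miR173 site has 1 mismatch in TAS1A, TAS1C and TAS2 and 2 in TAS1B, each with 1 G:U pair. The site of TAS3 nearer its 5′ end is interrupted in its middle, where Argonaute would cut, and the site nearer the 3′ end pairs without a break across its middle and into the seed. The best and second-best matches of miR390 have 2 and 6 mismatches in TAS3B, and 2 and 3 in TAS3C.

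**Figure D1:**
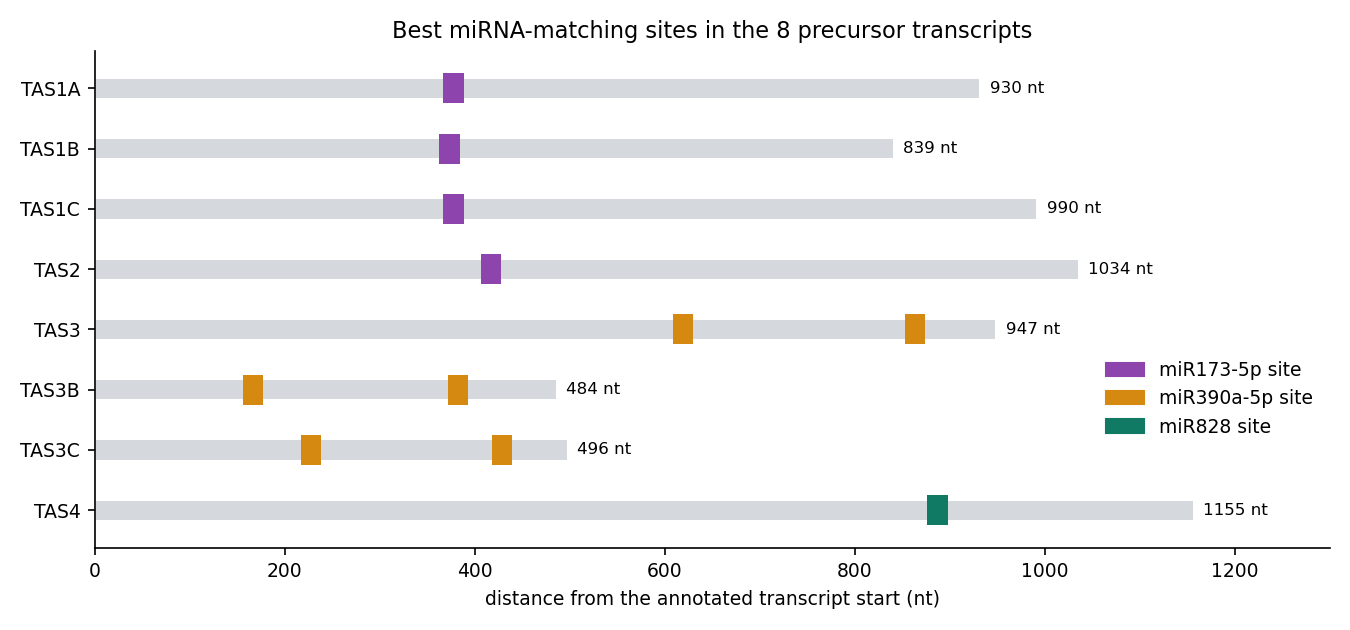
The 8 annotated precursor transcripts drawn to scale, in nucleotides (nt) from the transcript start, with the matches to miR173-5p, miR390a-5p and miR828 as coloured blocks. The miR173 matches start 362 to 406 nt from the start in TAS1A, TAS1B, TAS1C and TAS2, and the 2 best miR390 matches are drawn in each of the 3 TAS3 genes.

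Counting upstream in steps of 21 nt from the cut that the 3′ site of TAS3 would receive, the seventh and eighth registers held similar sequences. They are shown because they are the part of TAS3 that matches its targets. They are predicted from the sequence alone, and siRNAs with these exact ends were not measured.
Register 7, chr3:5862207-5862227, plus strand: UCUUGACCUUGUAAGACCCCA
Register 8, chr3:5862186-5862206, plus strand: UCUUGACCUUGUAAGGCCUUU
The best match of register 8 lay in ARF2 at chr5:24913260-24913280, plus strand: AAgGGuCUUgCAAGGUCAAGA
The best match in ARF3 lay at chr2:14325943-14325963, minus strand: gAgGGuCUUgCAAGGUCAAGA
The best match in ARF4 lay at chr5:24309509-24309529, minus strand: AAgGGuCUUgCAAGGUCAAGA
These 3 sites have 0 mismatches to register 8, with 3, 4 and 3 G:U pairs. ARF3 and ARF4 each hold another match, with 1 mismatch.

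In the genome, TAS1A lies on chromosome 2 (11721539 to 11722468, minus strand), TAS1B on chromosome 1 (18549204 to 18550042, minus strand) and TAS3 on chromosome 3 (5861491 to 5862437, plus strand). TAS1C (16537288 to 16538277) and TAS2 (16539384 to 16540417) are neighbours on the minus strand of chromosome 2, with 1106 bp between them. TAS3B (20134200 to 20134786) and TAS3C (23394005 to 23394500) lie on the plus strand of chromosome 5, and TAS4 (9417551 to 9418705) on the minus strand of chromosome 3. Each is annotated as a gene of its own, with 1 exon except for TAS3B, which has 2. TAS1B overlaps the microRNA gene MIR5636 on the opposite strand, and TAS1C overlaps the 3′ end of the protein-coding gene AT2G39670 on the opposite strand. The sources do not say whether counting used strand, so reads of these overlaps cannot be told apart. The 8 transcripts share no 50-base word, although TAS1A and TAS1B are 74.4% identical over 918 aligned columns and TAS1B and TAS1C 81.9% identical over 419.

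Among the mutated genes, SKI2 stood at 3.04 ± 0.23 FPKM in ski2 dcl4 dcl2 and 3.35 ± 0.18 in ski2 dcl4, against 6.41 ± 0.19 in Col-0, at control (SD, n = 3 each). DCL2 stood at 3.25 ± 0.40 FPKM in ski2 dcl4 dcl2 against 5.61 ± 0.04 in Col-0. DCL4 stood at 2.84 ± 0.16 FPKM in ski2 dcl4 dcl2 and 3.44 ± 0.22 in ski2 dcl4, against 3.41 ± 0.33 in Col-0, and neither difference passed (limma's adjusted p = 0.54 and 0.941). One value per gene does not tell which exons were read. SMXL5 averaged 15.0 ± 0.4 FPKM in control libraries with the label smxl4 smxl5 and 4.57 ± 0.46 in Col-0, and SMXL4 averaged 3.22 ± 0.32 and 1.93 ± 0.15. Both were higher at control, against a plain loss of these transcripts, so that genotype is given by its label. After heat SMXL4 was lower there, at 1.08 ± 0.25 FPKM against 2.22 ± 0.15 in Col-0 (limma's adjusted p = 0.000192). Heated SMXL5 averaged 3.05 ± 0.24 FPKM under that label and 3.12 ± 0.27 in Col-0, which did not pass (adjusted p = 0.872). SMXL6 averaged 3.13 ± 0.19 FPKM and SMXL8 0.429 ± 0.021 in smxl6 smxl7 smxl8, against 5.44 ± 0.51 and 1.00 ± 0.28 in Col-0, while SMXL7 averaged 8.20 ± 0.99 against 8.09 ± 1.11, all at control. After heat all 3 were lower than in Col-0, SMXL7 at 3.19 ± 0.31 FPKM against 8.09 ± 0.99 (adjusted p = 1.49e-07). The shoot genes RCA and LHCB2.1 and the root genes SCR, CASP1, COBL9 and WER were all detected in Col-0, where heat left 2 of these 6 higher and 3 lower, against 29.9% and 27.3% of all genes. The heat markers HSFA2 and HSP101 were both higher after heat in each genotype. Summed FPKM per library ran from 931940 to 1099793 in heat libraries and from 735524 to 904077 in control libraries. The estimated reads behind 1 FPKM in a 1 kb transcript were 10.3 to 19.3 in heat libraries and 14.2 to 23.9 in control libraries. Depth went with genotype: in heated ski2 dcl4 dcl2 and ski2 dcl4 these reads were 17.1 to 19.3, and in the other heated groups 10.3 to 16.3. Values near 0 are thus counted less finely in heated Col-0 than in these mutants. In such bulk samples, fewer cells of a type and less RNA per cell cannot be told apart.

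Of the 8 precursors, TAS3 was the most abundant per length in every group, and TAS3B, TAS3C and TAS4 stayed below 1 FPKM in all 30 libraries. TAS1A, TAS1B, TAS1C, TAS2 and TAS3 passed the filter of at least 1 FPKM in at least 3 libraries and were tested. For TAS1A, TAS1B, TAS1C and TAS2 nearly all libraries over that level were control ones, so their number carries no weight of its own. Counts out of 8 below include the 3 precursors that were not tested and could not be called. The shares of all genes beside them are over the 21531 genes tested. The genes of the triggers, MIR173, MIR390A, MIR390B and MIR828, were listed at 0 in all 30 libraries. An exact 0 in this table may be a failed estimate: of 175 genes that reached 1000 FPKM in some library, 9 were listed at 0 in another, among them RBCS1A, a gene of the small subunit of Rubisco, at 0 in 21 libraries and at 7949 to 13799 FPKM in the other 9.

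Heat lowered TAS3 in Col-0 to a few hundredths of its level. TAS3 had 1.88, 1.02 and 0.844 FPKM in the 3 heated Col-0 libraries, against 56.2, 60.6 and 55.2 FPKM in the 3 control ones. The groups lay far apart, and the heated mean was 2.17% of the control mean. Expressed as log2(FPKM + 1), a scale that compresses the changes of low genes, the change was −4.73 ± 0.19 (SE, limma's adjusted p = 2.88e-15), and 2 of the 21531 genes tested had a more negative one.

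The miR173-dependent precursors fell in Col-0 too. TAS1A had 0.0864, 0.335 and 0.239 FPKM in heated Col-0 libraries, against 10.4, 9.57 and 9.78 FPKM in control ones. TAS1B had 0.600, 0.485 and 0.185 FPKM after heat, against 8.00, 6.05 and 6.63 FPKM at control. TAS1C was nearly gone, with 0.159, 0.154 and 0 FPKM after heat, against 7.45, 6.73 and 8.18 FPKM at control. In all 3 genes each heated library was below each control library, a separation that was not counted over all genes. The heated values rested on an estimated 0 to 5.28 reads per library. TAS2, the neighbour of TAS1C, had 0.150, 0.940 and 0.344 FPKM after heat, against 5.29, 6.56 and 7.81 FPKM at control. Their log2 changes were −3.17 ± 0.15 for TAS1A, −2.48 ± 0.15 for TAS1B, −2.94 ± 0.10 for TAS1C and −2.38 ± 0.16 for TAS2 (SE; limma's adjusted p from 3.00e-16 to 4.09e-11). So 5 of the 8 precursors were called lower in Col-0, where 27.3% of all genes tested were called lower; the medians were −2.94 over the 5 tested precursors and 0.01 over all genes.

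The other 4 genotypes gave the same 5 of 8 precursors as lower after heat. The share of all genes called lower was 24.3% in ski2 dcl4 dcl2, 23.6% in ski2 dcl4, 24.1% in smxl6 smxl7 smxl8 and 24% in the libraries labelled smxl4 smxl5. In these 4 genotypes heated and control libraries did not overlap for any of the 5 genes, as in Col-0. The share of all genes without overlap was not computed, for this or the other comparisons, so it only describes these genes. TAS1A was left at 4.19% of its control mean in ski2 dcl4 dcl2, 1.78% in ski2 dcl4, 2.32% in smxl6 smxl7 smxl8 and 2.89% in the libraries labelled smxl4 smxl5, against 2.22% in Col-0. TAS2 was left at 4.34% to 10.97% in those genotypes and at 7.29% in Col-0. TAS1B was left at 16.6% in ski2 dcl4 dcl2 and 6.14% in Col-0, but the difference of the 2 heat effects was not called (0.54 ± 0.21 on the log2 scale, limma's adjusted p = 0.605). Each percentage of a TAS1 or TAS2 transcript rests on few heated reads, and in several groups it spans more than a factor of 2 between libraries.

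**Figure D2:**
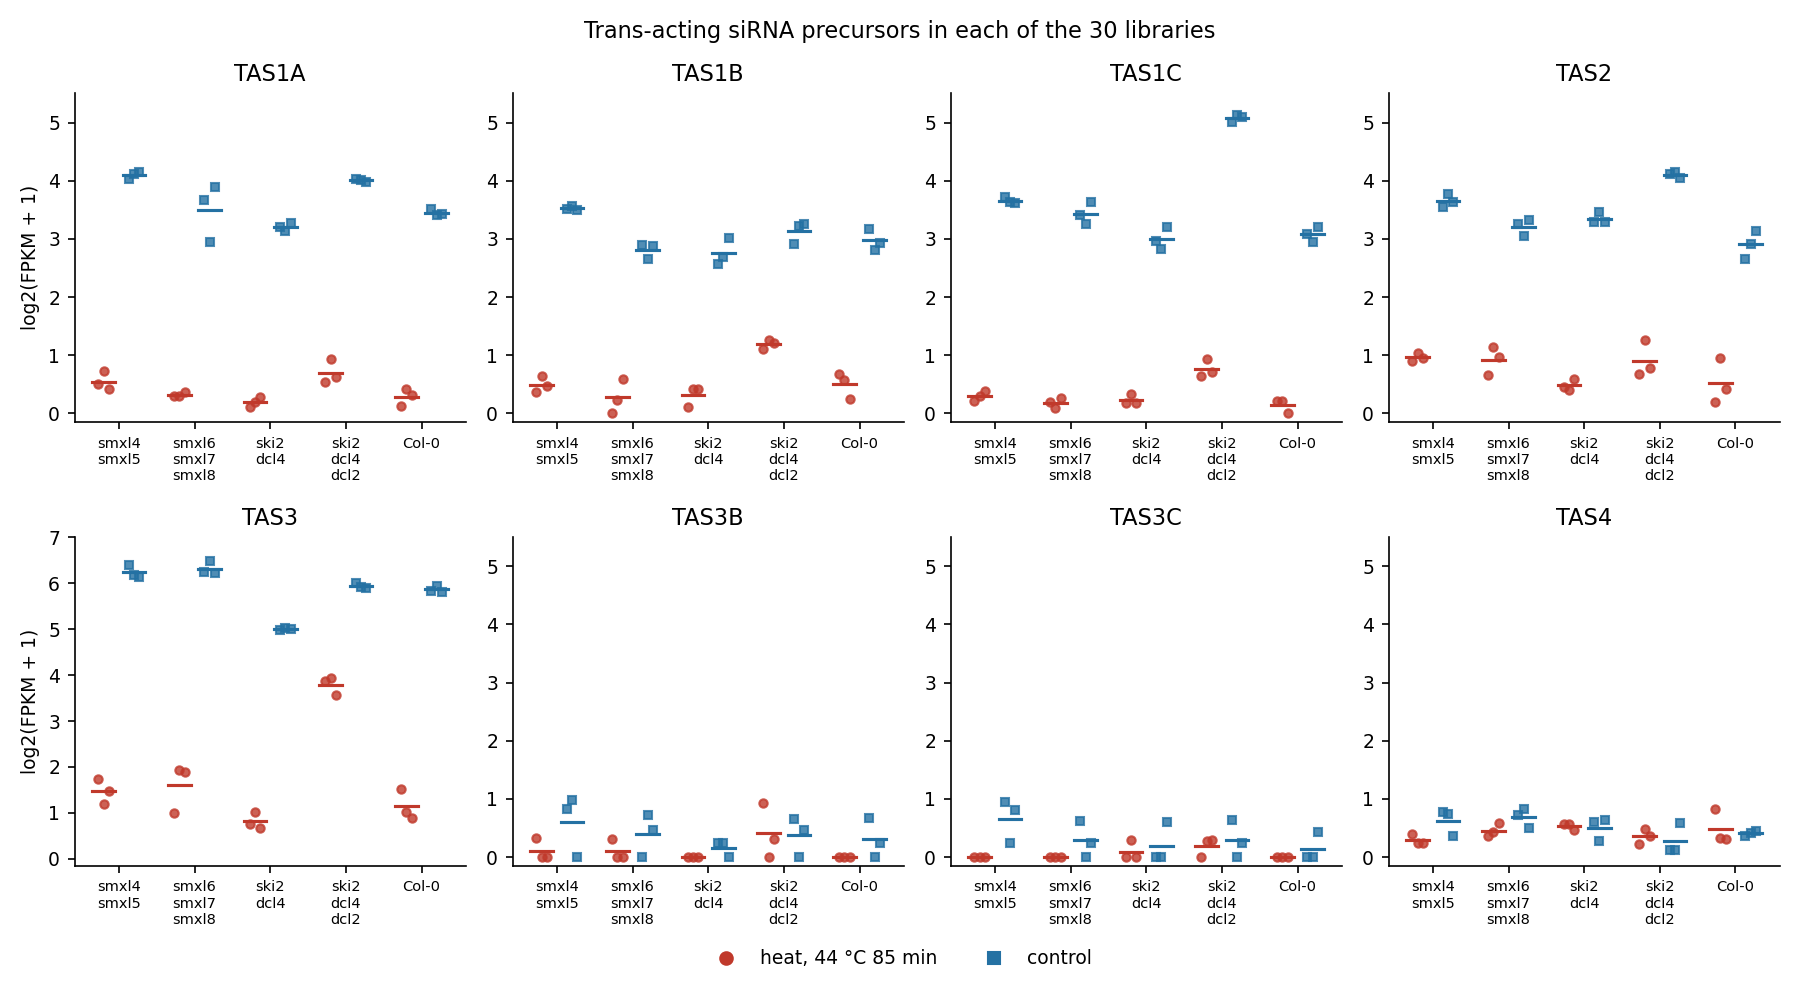
Level of each precursor as log2(FPKM + 1) in every library, by genotype, with heat (red circles) left of control (blue squares) and a bar at the mean of 3. TAS1A, TAS1B, TAS1C, TAS2 and TAS3 (on a longer axis) are lower in each heated group, heated TAS3 is highest in ski2 dcl4 dcl2, and TAS3B, TAS3C and TAS4 lie below 1 FPKM throughout.

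TAS3 behaved differently in ski2 dcl4 dcl2. It had 13.5, 14.3 and 10.9 FPKM in the heated libraries of this triple mutant, against 63.0, 59.4 and 58.8 FPKM in its control libraries. That is 21.3% of the control mean, with single heated libraries between 18.0% and 23.6%. It was left at 2.47% in ski2 dcl4, 2.74% in smxl6 smxl7 smxl8 and 2.42% in libraries with the label smxl4 smxl5, against 2.17% in Col-0. The log2 change with heat was −2.15 ± 0.19 in ski2 dcl4 dcl2 (limma's adjusted p = 2.96e-09), and the difference of this heat effect from that of Col-0 was 2.57 ± 0.27 (adjusted p = 1.08e-05). In that test of the difference, 1 of the 8 precursors, TAS3, was called higher, against 0.0372% of all genes, and 1, TAS1C, was called lower, against 0.00929% of all genes. In ski2 dcl4 the same difference for TAS3 was 0.54 ± 0.27 (adjusted p = 0.429).

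TAS1C had the opposite sign. Its heat effect in ski2 dcl4 dcl2 was more negative than in Col-0 by 1.38 ± 0.15 on the log2(FPKM + 1) scale (limma's adjusted p = 1.26e-05). This depends on the pseudocount: with 0.1 in place of 1 the difference was −0.05 (adjusted p = 0.991). As a percentage of control, TAS1C was left at 2.14% in ski2 dcl4 dcl2 and at 1.40% in Col-0, and the estimated reads per heated library were 9.76 to 15.4 and 0 to 1.65. Without Col-0 heat replicate 3, where TAS1C is listed at 0, the difference was still called. The other 3 genotypes had none of the 5 tested precursors called in limma's test of the difference. At the same adjusted threshold, 0.372% of all genes were called in either direction in ski2 dcl4. The shares were 5.29% in smxl6 smxl7 smxl8 and 2.08% under the label smxl4 smxl5. At an unadjusted p under 0.05, 1 precursor passed in ski2 dcl4, 1 in smxl6 smxl7 smxl8 and 2 under the label smxl4 smxl5. In ski2 dcl4 dcl2 it was 4: TAS3, TAS1C, and also TAS1B and TAS2, which were not called after adjustment. The share of all genes at that unadjusted level was not computed.

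**Figure D3:**
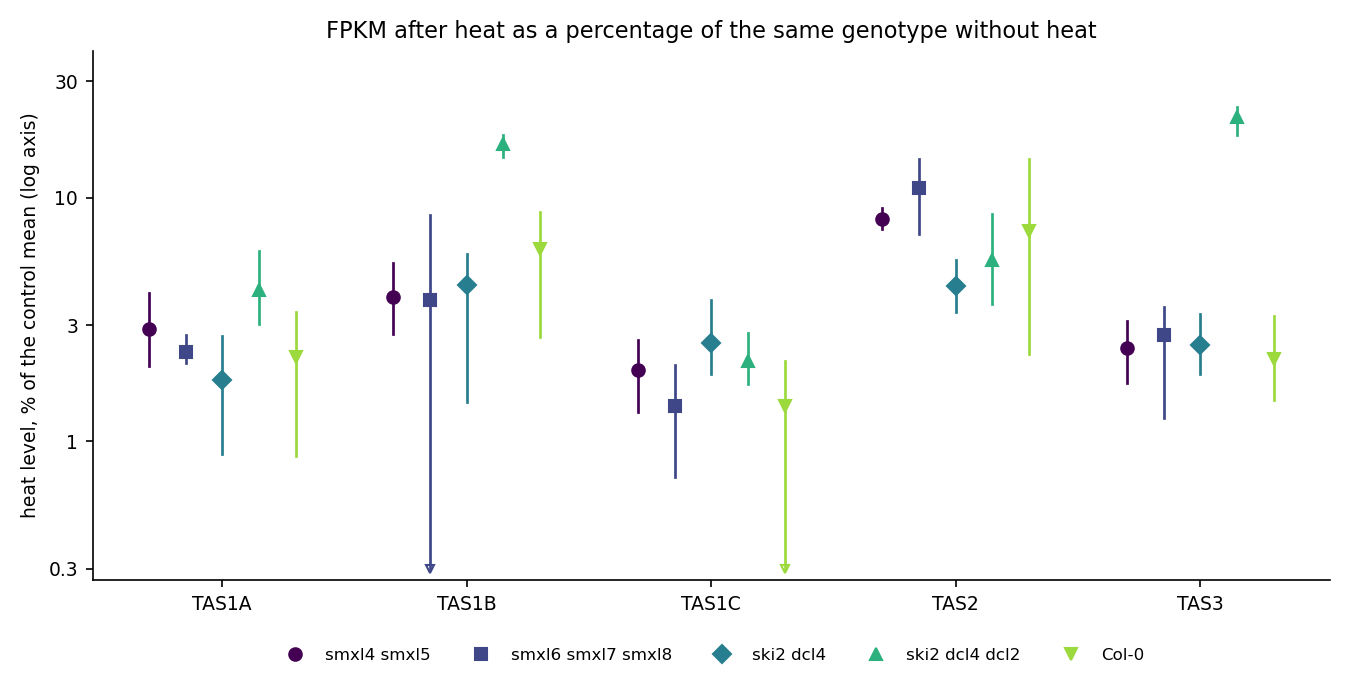
Heated FPKM as a percentage of the control mean of the same genotype, on a log axis, for the 5 tested precursors; symbols are group means, lines span the 3 heated libraries, and open arrowheads mark libraries below 0.3%. TAS3 in ski2 dcl4 dcl2 stands at 21.3% against 2.17% to 2.74% in the other 4 genotypes.

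Without heat, TAS1C had the largest log2 difference from Col-0 among the 5 tested precursors in ski2 dcl4 dcl2. It had 31.2, 33.9 and 33.0 FPKM there, against 7.45, 6.73 and 8.18 FPKM in Col-0. The libraries were tight within each group and 4.39-fold apart on average, with a log2 difference of 2.00 ± 0.10 (limma's adjusted p = 6.19e-12). TAS2 had 16.3, 16.8 and 15.6 FPKM in ski2 dcl4 dcl2, against 5.29, 6.56 and 7.81 FPKM in Col-0, a log2 difference of 1.20 ± 0.16 (adjusted p = 2.10e-05). Thus 2 of the 8 precursors were called higher, the neighbours TAS1C and TAS2, against 1.49% of all genes. TAS1A stood at 15.1 ± 0.30 FPKM against 9.91 ± 0.42 in Col-0 without overlap, but missed the threshold (log2 difference 0.57 ± 0.15, adjusted p = 0.0603); it passed with upper-quartile rescaling (adjusted p = 0.0291) and with only the libraries compared in the fit (0.00168). TAS3 stood at 60.4 ± 2.3 FPKM against 57.3 ± 2.9 in Col-0 (0.07 ± 0.19, adjusted p = 0.999; 95% interval −0.31 to 0.46). The ratio of TAS1C to TAS1A was 2.16 ± 0.12 in ski2 dcl4 dcl2 and 0.752 ± 0.073 in Col-0.

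In ski2 dcl4, whose label does not include dcl2, TAS3 and TAS2 were called different from Col-0 at control. TAS3 had 30.7, 31.8 and 30.8 FPKM, against 56.2, 60.6 and 55.2 FPKM in Col-0. The log2 difference was −0.86 ± 0.19 (limma's adjusted p = 0.00109), and TAS3 was the 1 precursor of 8 called lower, against 17.1% of all genes. TAS2 was the 1 called higher, against 16.1% of all genes, at 9.22 ± 0.74 FPKM in ski2 dcl4 and 6.55 ± 1.26 in Col-0 (0.45 ± 0.16, adjusted p = 0.0374). The TAS2 call was lost with a pseudocount of 0.5 (adjusted p = 0.0995) and when any of 5 libraries was left out (adjusted p from 0.0600 to 0.180): Col-0 control replicate 1 or 2, or ski2 dcl4 control replicate 1, 2 or 3. TAS1C stood at 7.02 ± 1.07 FPKM in ski2 dcl4 and 7.45 ± 0.72 in Col-0.

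The direct comparison of ski2 dcl4 dcl2 with ski2 dcl4, genotypes that by their labels differ in dcl2, had each tested precursor on the higher side. At control 4 of 8 were called higher, against 15.2% of all genes. TAS1C stood at 32.7 ± 1.4 FPKM in ski2 dcl4 dcl2 and 7.02 ± 1.07 in ski2 dcl4 (log2 difference 2.08 ± 0.10, limma's adjusted p = 2.62e-12). TAS3 stood at 60.4 ± 2.3 and TAS1A at 15.1 ± 0.30 FPKM in ski2 dcl4 dcl2, against 31.1 ± 0.58 and 8.21 ± 0.43 FPKM in ski2 dcl4 (0.94 ± 0.19 and 0.81 ± 0.15, adjusted p = 0.000715 and 0.000328). TAS2 differed by 0.76 ± 0.16 (adjusted p = 0.00133) and TAS1B by 0.37 ± 0.15, which did not pass (adjusted p = 0.0699). TAS1B did pass without ski2 dcl4 dcl2 control replicate 1 (adjusted p = 0.0371) or ski2 dcl4 control replicate 3 (0.0276), and TAS2 did not with a pseudocount of 0.1 (0.0789). After heat 5 of 8 were called higher, against 15.6% of all genes. With only the libraries compared in the fit it was 2, TAS1B and TAS3, since the other 3 were below the filter. TAS3 had 13.5, 14.3 and 10.9 FPKM in heated ski2 dcl4 dcl2, against 0.689, 1.03 and 0.587 FPKM in heated ski2 dcl4. That was a 16.7-fold difference of the means (log2 difference 2.97 ± 0.19, adjusted p = 5.02e-11). The others differed by 0.42 (TAS2) to 0.88 (TAS1B); without ski2 dcl4 dcl2 heat replicate 2 the number called was 3, since TAS1A and TAS2 no longer passed (adjusted p = 0.0779 and 0.276). TAS2 also did not pass without ski2 dcl4 dcl2 heat replicate 3 or without any 1 of the ski2 dcl4 heat replicates (adjusted p from 0.0501 to 0.122), nor without a filter on low values (0.0637). Seedling markers moved in the same comparison. Of the 6, 2 were higher at control and 0 lower: the root genes CASP1, at 38.97 ± 5.3 FPKM in ski2 dcl4 dcl2 and 23.3 ± 2.6 in ski2 dcl4 (0.72 ± 0.15, adjusted p = 0.00121), and COBL9, at 4.69 ± 0.31 and 3.02 ± 0.74 (0.52 ± 0.13, adjusted p = 0.00361). After heat 3 were higher and 0 lower, these 2 and RCA, by 0.31 to 0.43 (adjusted p from 0.00930 to 0.0296). Their part in the precursors' differences was not tested.

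After heat, ski2 dcl4 dcl2 against Col-0 had 3 of 8 precursors called higher, against 2.94% of all genes. TAS3 stood at 12.9 ± 1.8 FPKM in heated ski2 dcl4 dcl2 and 1.25 ± 0.55 in heated Col-0 (log2 difference 2.65 ± 0.19, limma's adjusted p = 5.89e-10). TAS1B had 1.15, 1.41 and 1.33 FPKM, against 0.600, 0.485 and 0.185 FPKM (0.70 ± 0.15, adjusted p = 0.00488). TAS1C had 0.560, 0.908 and 0.628 FPKM, against 0.159, 0.154 and 0 FPKM (0.62 ± 0.10, adjusted p = 0.000349). With only these 6 libraries in the fit, TAS1C was below the filter and TAS1B did not pass (adjusted p = 0.102). TAS1A and TAS2 differed by 0.42 ± 0.15 and 0.38 ± 0.16 (adjusted p = 0.107 and 0.188). TAS1A passed with a pseudocount of 0.5 (adjusted p = 0.0349) or 0.1 (0.00914), and TAS2 without Col-0 heat replicate 2 (0.0388). In ski2 dcl4 against Col-0 after heat, 0 of the 5 tested were called by limma (0 at an unadjusted p under 0.05), and 39.5% of all genes were called in either direction. TAS1A, TAS1B, TAS1C and TAS2 lay below 1 FPKM in all these heated libraries, where the log2(FPKM + 1) scale leaves little room for a call.

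**Figure D4:**
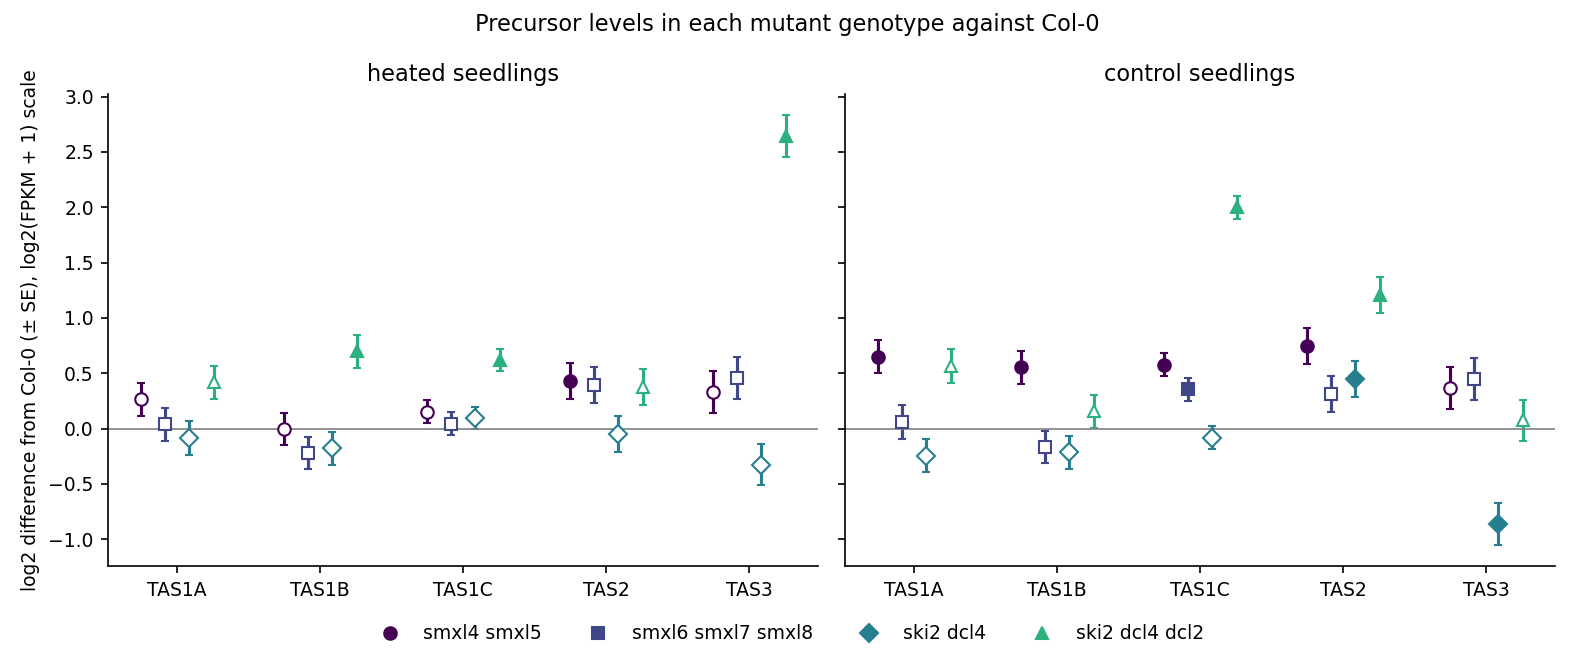
Log2 difference of each mutant genotype from Col-0 (± SE) on the log2(FPKM + 1) scale, for heated seedlings on the left and control seedlings on the right; filled symbols passed an adjusted p of 0.05. In ski2 dcl4 dcl2 TAS1C differs by 2.00 and TAS2 by 1.20 at control, and TAS3 by 2.65 after heat.

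The libraries labelled smxl4 smxl5 held more of the miR173-dependent precursors at control. TAS1A had 15.3, 16.3 and 16.8 FPKM there, against 10.4, 9.57 and 9.78 FPKM in Col-0. TAS2 had 10.7, 12.6 and 11.5 FPKM, against 5.29, 6.56 and 7.81 FPKM. Neither gene's groups overlapped, and log2 differences were 0.65 ± 0.15 for TAS1A, 0.55 ± 0.15 for TAS1B, 0.58 ± 0.10 for TAS1C and 0.75 ± 0.16 for TAS2 (limma's adjusted p from 0.000174 to 0.00657). These are 4 of 8 precursors called higher, against 15.3% of all genes. Of the 6 seedling markers RCA and SCR were higher there (log2 differences 0.58 and 0.24), and LHCB2.1 was lower (−0.36; 14.8% of all genes were called lower). Their part was not tested. With a pseudocount of 0.1 the differences were 0.61 to 0.83 and none of the 4 passed (adjusted p from 0.0646 to 0.304). TAS3 stood at 74.5 ± 7.5 FPKM against 57.3 ± 2.9 in Col-0 and did not pass (0.37 ± 0.19, adjusted p = 0.146), except with only these 6 libraries in the fit (adjusted p = 0.0106). After heat 1 of 8 was called higher, against 19.1% of all genes: TAS2, at 0.948 ± 0.0997 FPKM against 0.478 ± 0.412 in Col-0 (0.43 ± 0.16, adjusted p = 0.0403), with overlapping libraries. The call was lost when any of 5 libraries was left out (adjusted p from 0.0569 to 0.260): Col-0 heat replicate 1 or 3, or any 1 of the smxl4 smxl5 heat replicates. It was also lost without a filter (0.0602) and with upper-quartile rescaling (0.0503), and a pseudocount of 0.1 gave 3 precursors.

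In smxl6 smxl7 smxl8 at control 1 of 8 was called higher, against 13.4% of all genes. This was TAS1C, at 9.85 ± 1.40 FPKM against 7.45 ± 0.72 in Col-0 (0.36 ± 0.10, limma's adjusted p = 0.0131). Its adjusted p was 0.0756 if Col-0 control replicate 2 was left out, 0.0856 if smxl6 smxl7 smxl8 control replicate 3 was, 0.0858 with only these 6 libraries in the fit and 0.329 with a pseudocount of 0.1. If smxl6 smxl7 smxl8 control replicate 2 was left out, 2 precursors were called. TAS1A had 11.7, 6.72 and 13.9 FPKM in these 3 libraries. After heat 0 of 8 were called (limma; 2 at an unadjusted p under 0.05), against 23.8% of all genes called in either direction; with a replicate block 1 was, TAS2 (adjusted p = 0.0478). Those 2 were TAS2 and TAS3, with differences of 0.39 ± 0.16 and 0.46 ± 0.19 (adjusted p = 0.0818 and 0.0792); without smxl6 smxl7 smxl8 heat replicate 1 both passed (adjusted p = 0.0409 and 0.00227). Leaving out Col-0 heat replicate 1 also let TAS3 pass (adjusted p = 0.0285), and leaving out Col-0 heat replicate 2 let TAS2 pass (0.00578).

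Added up, the 8 precursors made 133 ± 1 FPKM in ski2 dcl4 dcl2 at control and 62.1 ± 2.3 in ski2 dcl4. They made 115 ± 2 FPKM in smxl6 smxl7 smxl8 and 126 ± 7 under the label smxl4 smxl5, against 88.8 ± 0.9 in Col-0. The 3 libraries of each of these groups did not mix with those of Col-0. After heat the sum was 17.2 ± 2.3 FPKM in ski2 dcl4 dcl2, and 2.27 ± 0.49 to 4.17 ± 0.39 in the other 4 genotypes. TAS3 made up 74.8% of the sum in heated ski2 dcl4 dcl2 and 45.4% in control ski2 dcl4 dcl2. In Col-0 the shares were 43.0% after heat and 64.5% at control. The order of TAS3 levels at control was smxl6 smxl7 smxl8 (73.4 to 87.9 FPKM), the libraries labelled smxl4 smxl5 (69.3 to 83.1), ski2 dcl4 dcl2 (58.8 to 63.0), Col-0 (55.2 to 60.6) and ski2 dcl4 (30.7 to 31.8). The first 2 groups overlapped, as did ski2 dcl4 dcl2 and Col-0, while ski2 dcl4 stood alone at the bottom. Against Col-0, TAS3 in smxl6 smxl7 smxl8 and under the label smxl4 smxl5 did not pass (limma's adjusted p = 0.0819 and 0.146).

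The 3 rare precursors gave little to compare. TAS4, the source of siRNAs against anthocyanin MYB genes, stood between 0.226 and 0.452 FPKM on average in the heated groups and between 0.230 and 0.616 in the control groups, and heated and control libraries overlapped in each genotype. TAS3B was listed at 0 in all heated libraries of ski2 dcl4 and of Col-0, and at 0.175, 0.176 and 0 FPKM in control ski2 dcl4 and 0.593, 0 and 0.187 FPKM in control Col-0. TAS3C was listed at 0 in all heated libraries of 3 genotypes: smxl4 smxl5 by label, smxl6 smxl7 smxl8, and Col-0. Without the filter, TAS3C in the libraries labelled smxl4 smxl5 was called lower after heat (0, 0 and 0 FPKM against 0.917, 0.184 and 0.745 FPKM at control; adjusted p = 0.00676), on an estimated 1.35 to 8.40 reads per control library.

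The genes that process the precursors were detected in all groups. Of 14 genes of the ta-siRNA pathway, chosen for their known roles, all 14 were tested, and after heat in Col-0 3 were higher and 6 lower, against 29.9% and 27.3% of all genes; their median change was −0.09 on the log2 scale. The list holds DCL4 and DCL2, which are mutated here. In ski2 dcl4 dcl2 against Col-0 at control 0 were higher and 1 lower, the mutated DCL2, against 1.49% and 0.172% of all genes. After heat 1 was higher, RDR6, and 2 lower, DCL2 and TEX1, against 2.94% and 2.98%. In ski2 dcl4 against Col-0 at control 4 were higher and 1 lower, against 16.1% and 17.1% of all genes, and after heat 4 were higher and 3 lower, the mutated DCL4 among them, against 22.3% and 17.2%. AGO7, the Argonaute that carries miR390, stood at 1.16 ± 0.30 FPKM in heated Col-0 and 1.74 ± 0.34 in control Col-0 (limma's adjusted p = 0.0268), and RDR6 at 5.58 ± 0.56 and 8.03 ± 0.24 (adjusted p = 1.93e-06). SGS3, the partner of RDR6, was higher after heat, at 10.96 ± 1.5 FPKM against 7.99 ± 0.67 (adjusted p = 0.000102). DCL4 stood at 3.26 ± 0.46 FPKM in heated and 3.41 ± 0.33 in control Col-0 (adjusted p = 0.64). RDR6 differed between the 2 genotypes with ski2. It had 7.72 ± 0.61 FPKM in heated ski2 dcl4 dcl2 and 2.32 ± 0.19 in heated ski2 dcl4 (log2 difference 1.39 ± 0.06, adjusted p = 3.40e-13), and 7.96 ± 0.27 and 5.74 ± 0.21 FPKM at control (0.41 ± 0.06, adjusted p = 5.59e-05). For RDR6 the change with heat, set against the one in Col-0, was 0.42 ± 0.09 higher in ski2 dcl4 dcl2, which did not pass (adjusted p = 0.170), and the same difference was −0.56 ± 0.09 in ski2 dcl4, which did pass (adjusted p = 0.00441). RDR6 is the polymerase that copies the precursors, and its part in their levels was not tested. Among the decay partners SKI2, SKI3, SKI8 and XRN4, heat in Col-0 left 1 higher and 1 lower, near the 29.9% and 27.3% of all genes. In ski2 dcl4 dcl2 and in ski2 dcl4, 1 of these 4, SKI2, was lower than in Col-0 and 0 were higher, in either condition.

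Of the TAS3 targets, ARF3 and ARF4 were higher than in Col-0 in both genotypes with ski2 and dcl4. No group carried ski2 or dcl4 alone, so the parts of these mutations cannot be told apart, here or for the other targets. ARF3 had 30.8, 29.7 and 30.1 FPKM in heated ski2 dcl4 dcl2 and 18.9, 19.2 and 16.9 FPKM in heated ski2 dcl4, against 4.52, 4.03 and 4.41 FPKM in heated Col-0. The 3 genotypes did not overlap. At control ARF3 stood at 25.5 ± 0.3 FPKM in ski2 dcl4 dcl2 and 20.9 ± 1.3 in ski2 dcl4, against 14.4 ± 0.6 in Col-0. ARF4, which has 2 matches to the predicted TAS3 register as ARF3 does, stood at 12.6 ± 0.7 and 9.49 ± 0.17 FPKM in heated ski2 dcl4 dcl2 and ski2 dcl4. In heated Col-0 it stood at 2.24 ± 0.16. Of ARF2, ARF3 and ARF4 together, 2 were called higher in ski2 dcl4 dcl2 and 3 in ski2 dcl4 after heat, against 2.94% and 22.3% of all genes, and likewise 2 and 3 at control, against 1.49% and 16.1%. Heat raised ARF3 slightly in ski2 dcl4 dcl2 (0.24 ± 0.09, limma's adjusted p = 0.0293) and lowered it in Col-0 (−1.53 ± 0.09, adjusted p = 2.37e-12), and the difference was 1.77 ± 0.12 (adjusted p = 8.67e-09). TAS3 fell in both genotypes, to 21.3% and 2.17% of control as given above. ARF2, with 1 match, stood at 86.1 ± 5.1 FPKM in heated ski2 dcl4 and 62.3 ± 4.7 in heated Col-0 (0.46 ± 0.06, adjusted p = 4.97e-06).

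HTT targets of TAS1 and TAS2 were also higher in these genotypes. HTT2 had 21.0, 25.0 and 27.1 FPKM in heated ski2 dcl4 dcl2 and 21.7, 21.6 and 27.9 FPKM in heated ski2 dcl4, against 3.79, 3.43 and 3.33 FPKM in heated Col-0. At control HTT2 stood at 24.5 ± 0.8 and 23.6 ± 2.1 FPKM in these mutants, against 8.21 ± 0.86 in Col-0. In ski2 dcl4 dcl2 the heat effect on HTT2 differed from that in Col-0 by 1.01 ± 0.16 (limma's adjusted p = 0.00586). Of 5 HTT genes 4 were tested. Although they are named for heat induction, heat in Col-0 left 0 higher and 2 lower, against 29.9% and 27.3% of all genes. In ski2 dcl4 dcl2 heat left 1 higher and 0 lower, where 24.3% of all genes were lower. Each remaining genotype had 0 higher and 1 lower, where 23.6% to 24.1% of all genes were lower. Compared with heated Col-0, 4 were higher in heated ski2 dcl4 dcl2 and 3 in heated ski2 dcl4, against 2.94% and 22.3% of all genes. At control 3 and 4 were higher than in Col-0, against 1.49% and 16.1%. HTT1 averaged 2.61 and 2.45 FPKM in heated ski2 dcl4 dcl2 and ski2 dcl4, against 0.0662, 0 and 0.0609 FPKM in the heated Col-0 libraries. The PPR targets belong to a gene family, and whether related copies share reads was not tested, so their values are uncertain. Of 11 listed, 8 were tested, and all 8 tested were lower after heat in each of the 5 genotypes, against 23.6% to 27.3% of all genes. Among them AT1G63130 averaged 0.34 to 1.15 FPKM in heated groups and 6.5 to 8.6 at control. A gene that passed the filter through control libraries could hardly be called higher after heat, so this count is no test. Against Col-0 after heat, 3 of the PPR genes were higher in ski2 dcl4 dcl2 and 3 in ski2 dcl4, beside 2.94% and 22.3% of all genes. At control 2 and 3 of them were higher, beside 1.49% and 16.1%. Of 3 TAS4 targets 1 was tested, MYB75. This gene, which drives anthocyanin synthesis, stood at 14.2 ± 7.4 FPKM in control ski2 dcl4 and 2.18 ± 0.41 in control Col-0 (adjusted p = 5.35e-06). It was lower in ski2 dcl4 dcl2 than in ski2 dcl4, at 3.07 ± 0.46 FPKM at control (adjusted p = 8.64e-05). TAS4 itself stood at 0.429 ± 0.186 and 0.327 ± 0.039 FPKM in control ski2 dcl4 and control Col-0.

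**Figure D5:**
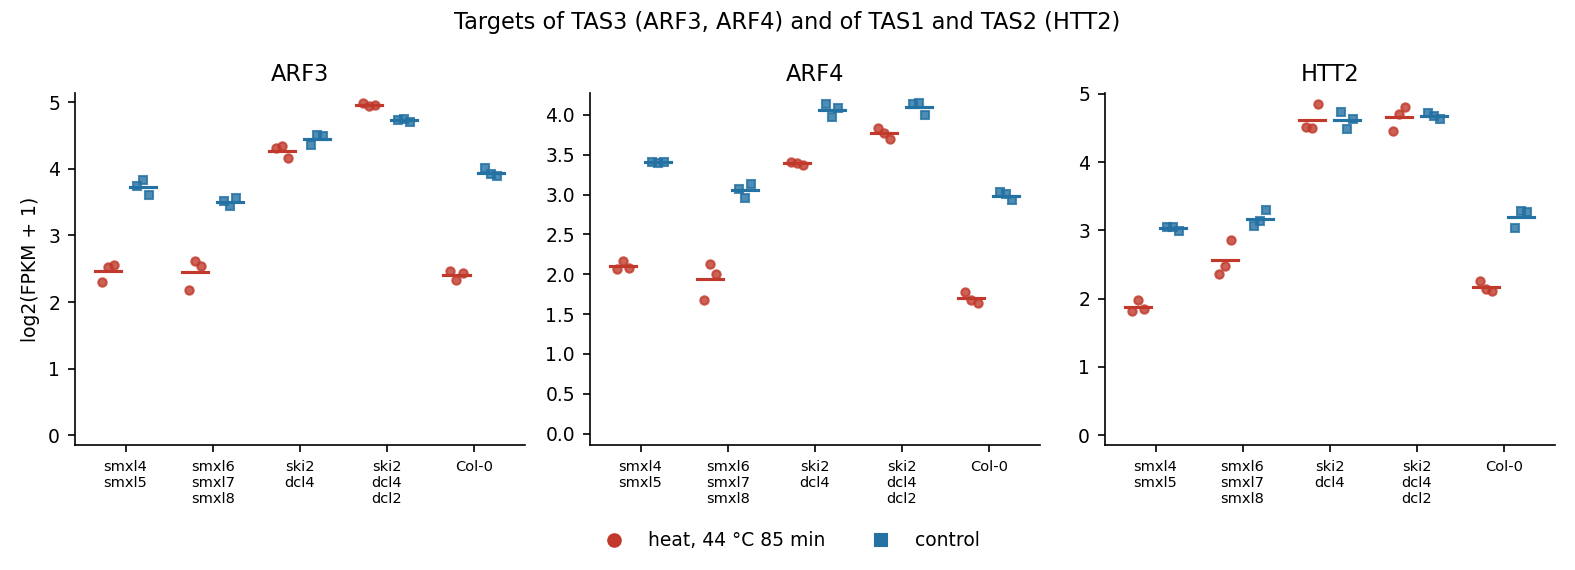
Levels of ARF3, ARF4 and HTT2 as log2(FPKM + 1) in every library, by genotype, with heat (red circles) left of control (blue squares) and a bar at the mean of 3. In heated ski2 dcl4 dcl2 and ski2 dcl4 all 3 genes lie above heated Col-0, for HTT2 at 24.4 and 23.7 FPKM against 3.52 FPKM.

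The tested precursors lay at different distances from other genes over the 10 groups. Likeness was measured as the root-mean-square difference between group means of log2(FPKM + 1), each gene centred on its own mean, among 15707 candidate genes other than the precursors themselves. Nearest to TAS1B was AT1G63130 (also named RPF6), at a difference of 0.25, which is a PPR gene on the list of TAS1 and TAS2 targets. Next were CRT1a, a calreticulin gene, and DMP2, at 0.27 each. TAS1A was nearest to BGLU34, AT3G61898 and CRT1a (0.33 to 0.35), and TAS2 to AT1G62790, AT3G61898 and AT3G55230 (0.33 to 0.34). Of these candidates the nearest to TAS1C was AT3G53980 at 0.55, followed by AT5G05960 and CRT1a. The nearest to TAS3 was the long non-coding RNA AT3G49668 at 0.96, followed by CRT1a and AT5G19230 at 0.97 and 0.99. Other precursors were nearer to both: TAS1C lay at 0.40 from TAS1A and 0.47 from TAS2, and TAS3 at 0.81 from TAS1A and 0.88 from TAS1C. TAS1A lay at 0.36 from TAS2. On the log2(FPKM + 1) scale these distances depend on a gene's level as well as on its pattern. In Col-0, heat left TAS3 and TAS1A at 2.17% and 2.22% of control, yet their log2 changes were −4.73 and −3.17. The distance of TAS3 from the candidates can therefore not be read as a pattern of its own.

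The promoters, taken as 250 bases before to 50 after the annotated start, were searched on both strands for the paired heat shock element forms GAANNTTC and TTCNNGAA, the G-box CACGTG and the TATA box TATAAA. None of the 8 precursors held GAANNTTC, TTCNNGAA or CACGTG in this window, and of 37790 promoters of that length 11.4%, 9.5% and 6.5% did. TATAAA was present on either strand in 7 of the 8, all but TAS3, and in 48.8% of all promoters. A further motif, GACGTC, was chosen after these sequences were seen: it was in the promoters of TAS1A, TAS1B, TAS1C, TAS2 and TAS3, the 5 that passed the filter, and in 2.8% of all promoters. Having been picked from these promoters, its count among them is no test against that share. TAS3B, TAS3C and TAS4 lack it, and a change of theirs with heat could not be tested under the filter, so no link of the motif to heat can be read. The stretch around it is shown to let the starts of the 5 genes be compared, with GACGTC and any TATAAA on the same strand in capitals.
TAS1A, chr2:11722419-11722528, minus strand: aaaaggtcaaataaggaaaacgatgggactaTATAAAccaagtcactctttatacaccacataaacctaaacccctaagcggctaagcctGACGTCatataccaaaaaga
TAS1B, chr1:18549993-18550102, minus strand: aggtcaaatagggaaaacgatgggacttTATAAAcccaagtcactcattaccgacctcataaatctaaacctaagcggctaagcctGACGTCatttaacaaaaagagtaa
TAS1C, chr2:16538228-16538337, minus strand: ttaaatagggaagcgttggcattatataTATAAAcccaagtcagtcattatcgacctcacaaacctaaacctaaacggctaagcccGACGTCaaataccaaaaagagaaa
TAS2, chr2:16540368-16540477, minus strand: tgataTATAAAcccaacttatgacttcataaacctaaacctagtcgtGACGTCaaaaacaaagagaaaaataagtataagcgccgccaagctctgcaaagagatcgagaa
TAS3, chr3:5861316-5861361, plus strand: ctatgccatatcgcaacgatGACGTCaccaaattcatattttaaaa
GACGTC began 31 bases after the start in TAS1A and 27 in TAS1B and TAS1C, but 13 bases before it in TAS2 and 155 before it in TAS3. TAS1A, TAS1B and TAS1C are similar in sequence here, so they are not independent cases. A match of letters is not a site, and whether a factor binds it was not tested.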

How the data were processed

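mRNA was sequenced from 30 seedling libraries, per the labels' protocols after Trizol extraction. The deposited table holds 1 FPKM value per gene and library, made by the authors; the unit was read from the values, which are not whole numbers and whose smallest steps shrink with transcript length. Of tools, the submitters' processing notes name Bowtie only. Counter, genome build, annotation and strand setting: not given in the sources used here. Depth was estimated from the step between the lowest values of genes seen in few libraries, so low values carry counting error. RefSeq names (TAIR10.1, which may not be the authors' build) matched 37792 of 38088 genes (99.2%).

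The 21531 genes that reached 1 FPKM in 3 or more libraries were transformed as log2(FPKM + 1) and fitted with limma 3.58.1 in R 4.3.3, with 1 mean per group over 30 libraries, an intensity trend, and Benjamini-Hochberg adjustment over all genes in each of 19 comparisons; an adjusted p under 0.05 was called. The step was tested on simulated data. No count test was run, because the table holds no counts. Sites and registers were found with Python 3.11.15 and Biopython 1.88 by pairing along the spliced transcripts. The members, gene lists and tests were chosen with earlier results of these data known. By rule all 8 precursors were described, with counts for each list, its 3 members of smallest adjusted p at most, and DCL4, DCL2, SKI2, AGO7, RDR6 and SGS3, and the 3 genes most alike each tested precursor; SMXL genes, ARF2, HTT1, AT1G63130 and the genes of the closing section were named beside it. Alternatives were the pseudocount, the filter, 2 rescalings, the libraries fitted, a replicate block, no trend, and each library left out.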

Additional observations from a re-analysis of the deposited data

Results flagged for a closer look

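The heat effect differed between genotypes for 2 precursors, by limma's test of the difference between ski2 dcl4 dcl2 and Col-0. For TAS3 the difference was 2.57 (adjusted p = 1.08e-05): 21.3% of the control level was left in heated ski2 dcl4 dcl2 and 2.17% in heated Col-0. RDR6 stood at 7.72 and 5.58 FPKM in those heated groups; the difference in its own heat effect, 0.42, did not pass (adjusted p = 0.170), and its part in the result was not tested. For TAS1C the difference was −1.38 (adjusted p = 1.26e-05), and it was −0.05 with a pseudocount of 0.1 (adjusted p = 0.991). The TAS1C value therefore depends on how a heated level close to 0 is scaled.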

How the results depend on the processing

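All 375 recomputed heat effects of the 5 tested precursors stayed called and lower, between −5.49 and −1.87 on the log2 scale. Of 742 recomputed values of called changes, 709 stayed called, 33 no longer passed and 0 changed sign; of 647 recomputed values of uncalled changes not printed above, 52 changed sign and 5 passed. The number of precursors called moved as follows. With a pseudocount of 0.1 it was 0 (4 as reported) for smxl4 smxl5 by label against Col-0 at control, 0 (1) for smxl6 smxl7 smxl8 at control, 1 (2) for ski2 dcl4 at control, 3 (1) for smxl4 smxl5 after heat, 1 (0) for smxl6 smxl7 smxl8 after heat and 1 (2) for the ski2 dcl4 dcl2 difference in heat effect. For ski2 dcl4 at control it was also 1 with a pseudocount of 0.5 or no filter. For smxl4 smxl5 after heat it was 0 with no filter, with upper-quartile rescaling and with only the libraries compared, where ski2 dcl4 dcl2 after heat had 1 (3) and ski2 dcl4 dcl2 against ski2 dcl4 after heat 2 (5). Leaving out 1 library in turn gave 0 to 1 for smxl4 smxl5 after heat, 0 to 2 for smxl6 smxl7 smxl8 after heat, 0 to 2 for it at control, 1 to 2 for ski2 dcl4 at control, and 3 to 5 for ski2 dcl4 dcl2 against ski2 dcl4 after heat. Some of these changes follow from fewer genes tested; the cause was not tested for the rest.

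Replicate numbers did not pair the libraries: over 135 same-numbered pairs the correlation of deviations ran from −0.197 to 0.215, and 7 of 30 libraries were closest to one with their own number. With a replicate block, smxl6 smxl7 smxl8 against Col-0 after heat had 1 precursor called (0 as reported), TAS2. Upper-quartile rescaling shifted the median of all genes by −0.11 in the heat effects of smxl4 smxl5 by label and of ski2 dcl4. Depth limits the heated TAS1 and TAS2 levels, which rest on an estimated 0 to 24.4 reads per library.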

Other observations

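Besides TAS3, 7 genes had a heat effect called higher in ski2 dcl4 dcl2 than in Col-0, out of 21531 tested; they are named here after their values were seen. ARF3, ARF4 and HTT2 were among them and are described above. AT1G12775 stood at 3.51 and 3.48 FPKM in heated and control ski2 dcl4 dcl2, against 0.0198 and 1.73 FPKM in heated and control Col-0 (difference 1.43 ± 0.18, limma's adjusted p = 0.000114). PCNA2, a gene of the replication clamp, stood at 30.7 and 21.0 FPKM in heated and control ski2 dcl4 dcl2, against 13.2 and 21.6 FPKM in Col-0 (1.21 ± 0.21, adjusted p = 0.0207). AT1G28400 differed by 0.76 ± 0.12 (adjusted p = 0.00586) and AT5G38850 by 0.69 ± 0.09 (adjusted p = 0.000200). The 1 gene called lower besides TAS1C was RBCS1A, listed at 0 in all heated and at 13013 to 13799 FPKM in control libraries of ski2 dcl4 dcl2, at 11902 to 12255 and 7949 to 9639 FPKM in heated and control ski2 dcl4, and at 0 in all Col-0 libraries. Its fitted difference of −13.72 rests on those zeros, which may be failed estimates.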
